A study of Mus musculus with 20 samples.

Results

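The genes described here build, link or maintain the sarcomere, the contractile unit of striated muscle, and the Z-disc that joins neighbouring sarcomeres. The set was given as 37 gene symbols covering the thick filament and M-line, the thin filament, the Z-disc, intermediate filaments, ubiquitin ligases bound to the sarcomere, and assembly and signalling proteins. A gene counted as measured when a probe of its symbol had a detection p-value under 0.01 on at least 5 of 20 arrays, and the probe with the highest mean then stood for the gene. By that rule 31 of the 37 genes were measured, among 12921 genes and unnamed probes tested in the whole series. For Nebl, Nexn and Neb, which encode nebulette, nexilin and nebulin, the probes were too dim. Tnnt2, Smpx and Trim55 had no probe listed under these symbols in the platform annotation used here. The samples were left ventricle without the infarct from C57BL/6J mice of 12-15 weeks, taken 3 days after surgery, 1 array per mouse. Coronary artery ligation, which causes a myocardial infarction (MI), was compared with sham surgery in males and in females, with 5 mice in each of the 4 groups. The series' title concerns survival of females after infarction, and the comparisons below ask how these transcripts differed after MI in each sex and whether the responses differed between the sexes.

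In a sarcomere, myosin thick filaments pull on actin thin filaments that are anchored in the Z-disc by alpha-actinin, while the giant protein titin spans from Z-disc to M-line. Tropomyosin and the troponins lie on the thin filament and make its use by myosin depend on calcium. Around the Z-disc, PDZ-LIM adaptors, filamin C and the desmin filaments connect the myofibrils with each other and with the cell membrane. Muscle ring finger (MuRF) proteins and atrogin-1 are ubiquitin ligases that mark muscle proteins for breakdown and are best known from muscle wasting, and chaperones such as Unc45b fold the myosin motor.

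Promoters of 6 called members are printed to show what their start regions share or lack. RefSeq's table of build GRCm38.p6 held 43 promoters for 30 of the 37 genes, each running from 250 bases before to 50 bases after an annotated start. Both strands were searched for the MCAT motif (CATTCC), the GATA motif (AGATAA) and the E-box (CAGCTG), and for the CArG box and the MEF2 site, and 0 matches of different motifs overlapped in the 43 promoters. In the sequences, read 5′ to 3′ in the direction of the gene, capitals mark the matches. They are Tpm1 at chr9:67049164-67049463 (minus strand), Ldb3 at chr14:34588632-34588931 (minus, the upstream of 2 annotated starts), Cmya5 at chr13:93144675-93144974 (minus), Trim54 at chr5:31116362-31116661 (plus), Trim63 at chr4:134314870-134315169 (plus) and Ky at chr9:102505888-102506187 (plus).
Tpm1: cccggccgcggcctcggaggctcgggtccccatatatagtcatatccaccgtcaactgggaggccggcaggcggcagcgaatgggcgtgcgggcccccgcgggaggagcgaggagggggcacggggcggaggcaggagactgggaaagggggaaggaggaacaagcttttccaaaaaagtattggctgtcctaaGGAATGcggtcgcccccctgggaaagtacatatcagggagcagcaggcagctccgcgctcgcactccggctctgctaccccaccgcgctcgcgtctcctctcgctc
Ldb3: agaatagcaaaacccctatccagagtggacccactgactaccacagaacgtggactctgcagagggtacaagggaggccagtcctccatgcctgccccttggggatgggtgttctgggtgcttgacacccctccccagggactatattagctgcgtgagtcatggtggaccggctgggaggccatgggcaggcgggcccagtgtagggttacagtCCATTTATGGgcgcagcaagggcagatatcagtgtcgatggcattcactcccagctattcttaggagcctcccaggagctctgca
Cmya5: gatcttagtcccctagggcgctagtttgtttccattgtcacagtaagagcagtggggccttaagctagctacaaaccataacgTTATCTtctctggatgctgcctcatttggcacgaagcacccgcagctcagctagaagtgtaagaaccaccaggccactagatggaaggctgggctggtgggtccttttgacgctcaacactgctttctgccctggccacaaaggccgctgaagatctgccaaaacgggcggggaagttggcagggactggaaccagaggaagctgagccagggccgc
Trim54: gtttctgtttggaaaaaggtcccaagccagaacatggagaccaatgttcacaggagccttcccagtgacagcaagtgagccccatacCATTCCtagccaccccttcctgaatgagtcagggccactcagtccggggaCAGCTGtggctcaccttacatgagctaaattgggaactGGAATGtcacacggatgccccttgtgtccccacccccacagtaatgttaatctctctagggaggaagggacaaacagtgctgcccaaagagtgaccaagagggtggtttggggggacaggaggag
Trim63: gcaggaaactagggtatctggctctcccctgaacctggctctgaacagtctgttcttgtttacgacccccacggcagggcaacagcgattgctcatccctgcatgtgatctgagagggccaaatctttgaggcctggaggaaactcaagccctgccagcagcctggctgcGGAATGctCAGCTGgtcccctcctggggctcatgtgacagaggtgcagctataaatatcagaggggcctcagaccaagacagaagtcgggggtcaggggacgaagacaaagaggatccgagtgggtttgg
Ky: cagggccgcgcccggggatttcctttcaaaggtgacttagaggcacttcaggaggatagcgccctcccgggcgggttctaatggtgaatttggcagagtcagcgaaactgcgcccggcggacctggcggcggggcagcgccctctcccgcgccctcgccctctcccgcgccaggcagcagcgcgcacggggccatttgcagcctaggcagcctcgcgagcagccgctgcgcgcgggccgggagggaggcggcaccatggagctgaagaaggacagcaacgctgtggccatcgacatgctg
In Tpm1 an MCAT match on the reverse strand began 56 bases before the start. The Ldb3 window held a CArG box 35 bases before the start, and the Cmya5 window a GATA match on the reverse strand 167 bases before it. Trim54 carried MCAT matches 163 and 75 bases and an E-box 113 bases before the start, and Trim63 an MCAT match 80 bases and an E-box 72 bases before it. Ky held no match of the 5 motifs in its window. Over all 32851 promoters of the table, MCAT occurred in 14.7%, GATA in 11.2%, the E-box in 16.3%, the CArG box in 1.63% and the MEF2 site in 3.19%. Of the 43 promoters of the set, which overlap where a gene has several starts, 15 held MCAT (34.9%), 9 GATA (20.9%), 10 the E-box (23.3%), 4 the CArG box (9.3%) and 5 the MEF2 site (11.6%). By response, MCAT was present for 4 of 10 members that fell in females, 2 of 5 that rose in either sex and 5 of 12 that were called in neither, counting genes with a promoter in the table.

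Per array, the median raw intensity was 31.4 to 39.2 and 15670 to 18388 probes were detected (34.61% to 40.61% of all probes), and the number of arrays limits the precision. The arrays sat on 4 BeadChips: chip 1 held 3 male sham and 3 male MI, chip 2 held 2 male sham, 2 male MI and 2 female sham, chip 3 held 2 female sham and 4 female MI, and chip 4 held 1 of each female group. Sex and chip therefore cannot be told apart after MI. The 3 arrays at position F of their chip were male sham 3, female sham 2 and female MI 4. With group means removed, members lay between 1.01 lower (Myoz2, a shift of -1.01) and 0.45 higher (Flnc) there on the log2 scale. Other positions were not compared in this way. For Myoz2 the shift came with 1 array, female sham 2, at 9.66 against a group mean of 11.99. Male sham 3 at 12.25 and female MI 4 at 12.26 lay nearer to their group means of 12.465 and 12.28. Ventricular muscle was present as labelled: 12 of 13 ventricular cardiomyocyte markers were measured, with Myh6, Myl2, Myl3 and Actc1 detected on 20 of 20 arrays. Atrial markers were detected too, namely Nppa and Myl4 on 20 arrays and Myl7 and Sln on 19. Of the 13 skeletal muscle markers listed on the platform, Myh1, Myh4, Actn3, Tnnc2 and Ryr1 were detected on 0 arrays and Tnni1 on 1. Others were detected, namely Myl1, Tnni2 and Tnnt1 on 20 arrays, Pvalb on 19, Mylpf on 16, Atp2a1 on 12 and Tnnt3 on 6. Of the 31 measured members 29 were detected on 20 arrays, Lmod2 on 18 and Ablim1 on 10. In this bulk tissue, fewer cells of a type and less RNA per cell cannot be told apart.

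After MI, with the arrays quantile normalised, the set showed few changes in males and more in females, where most of the called members were lower. Values below are normalised log2 intensities, and differences are MI minus sham. A member counts as called, and is said to have risen or fallen, at an adjusted p under 0.05 by limma over the 12921 features. In males 3 of 31 members rose (9.68%) and 3 fell (9.68%), while 9.77% of all features rose and 8.59% fell. In females 4 rose (12.9%) and 12 fell (38.7%), while 16.5% of all features rose and 16.3% fell. The members were chosen with earlier results of these data known, so these shares describe the set and do not test it. The median difference over the members was -0.06 in males and -0.34 in females, against -0.04 and -0.05 over all features. Tpm1 and Synpo2l rose and Ldb3, Cmya5 and Trim54 fell in both sexes, 9 members fell and Pdlim1 and Flnc rose with a call in females alone, Pdlim5 rose with a call in males alone, and 14 members were called in neither. Differences ran from -0.58 to 0.74 in males and from -1.57 to 1.02 in females, so that 2 members, Tpm1 and Ky, changed by 2-fold or more, both in females. MI and sham arrays did not overlap for 4 members in males (12.9%), against 18.1% of all features, and for 7 in females (22.6%), against 14.9%. With each array scaled to its 75th percentile instead, 2 members rose and 9 fell in males, and 3 rose and 14 fell in females. Over all 12921 features 998 then rose and 2049 fell in males, and 1831 rose and 2205 fell in females. The difference between the responses of the sexes was called for 0 of 31 members.

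These counts rested in part on single arrays. In males 1 member rose without male MI 2, and 1 fell without male MI 3, male sham 2 or male sham 3. In females 2 rose without female MI 1, female MI 2 or female sham 4. Within chip 2, with 2 arrays per group, 0 members passed, and within chip 3, with 2 sham and 4 MI arrays, Tpm1 and Flnc rose and Ky, Myom2 and Fbxo32 fell in females. With the chip as a block the calls of Pdlim5 in males and of Synpo2l, Lmod2, Ttn and Trim54 in females ended, and Smyd1 was called in females. Calls that held whichever array was left out were those of Tpm1 and Trim54 in males. In females they were those of Cmya5, Fbxo32, Ky, Ldb3, Mylk3, Myom2, Pdlim1, Tnni3, Tpm1, Trim63 and Unc45b, 11 of 16.

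**Figure D1:**
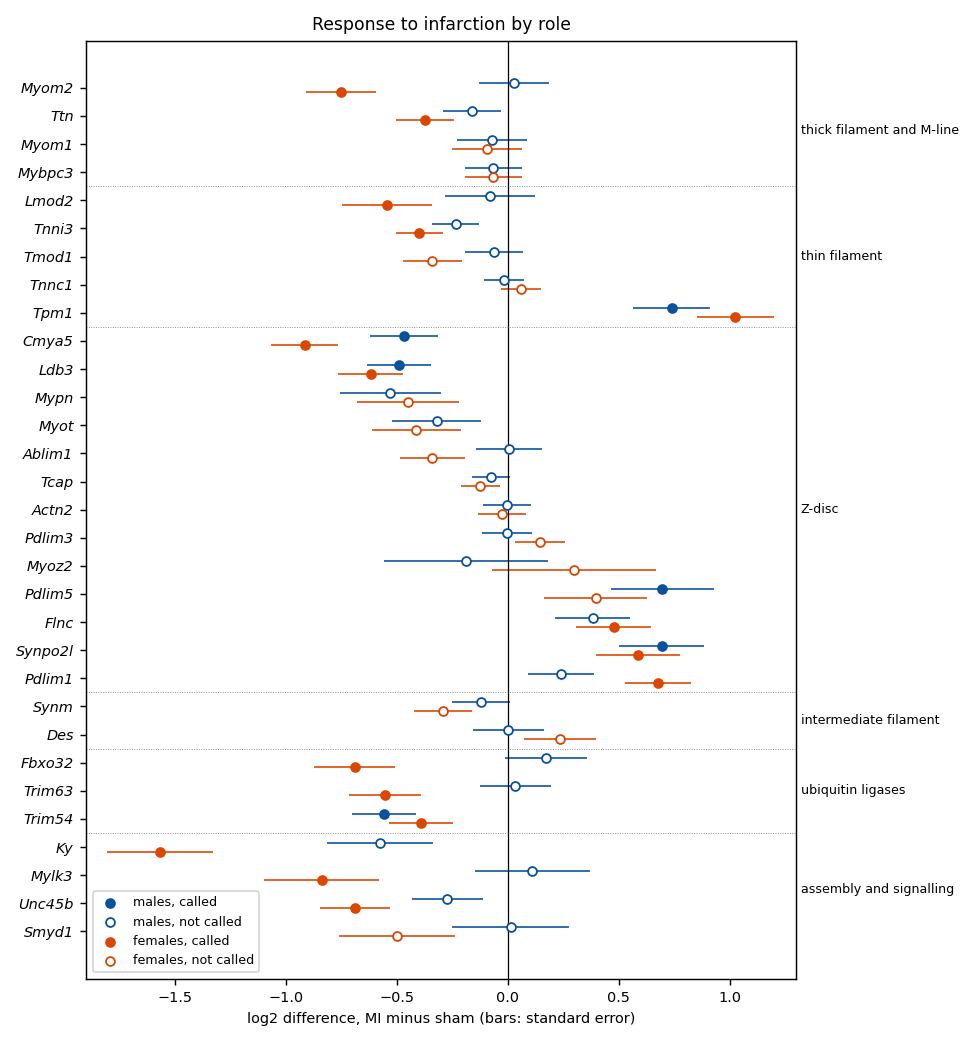
Log2 difference of MI minus sham for the 31 measured members, grouped by role, in males (blue) and females (orange). Bars are the standard error of limma's fit with 5 mice per group, and filled points are called; Ky in females lies lowest at -1.57 and Tpm1 in females highest at 1.02.

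Of the 8 thin filament genes 5 were measured, and the changes went both ways. Tpm1, the alpha-tropomyosin that lies along actin, rose in both sexes and was the largest rise of the set. Its male sham arrays read 9.59, 9.54, 9.89, 9.55 and 9.51 and its male MI arrays 10.30, 10.22, 10.66, 10.27 and 10.34. Female sham arrays read 9.65, 10.15, 9.69, 9.32 and 9.06 and female MI arrays 10.79, 10.92, 10.16, 10.79 and 10.34. In each sex every MI array stood above every sham array, in females by the narrow gap between female sham 2 and female MI 3. The rise was 1.67-fold in males (log2 0.74, SE 0.173, adjusted p = 0.00533) and 2.03-fold in females (log2 1.02, SE 0.173, adjusted p = 0.000145). The same difference was 0.72 within chip 1, 0.77 within chip 2, 1.15 within chip 3 and 1.28 between the MI and the sham array of chip 4. With 2 arrays per group the male rise did not pass within chip 2 (adjusted p = 0.204). The dimmer probe of Tpm1 rose by 0.60 in males (adjusted p = 0.0215) and by 1.01 in females (adjusted p = 0.000186). Which Tpm1 transcripts these probes read, and in which cells of the tissue they rose, was not tested.

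Tnni3, cardiac troponin I, the inhibitory subunit of the troponin complex, fell in females. Its female sham arrays read 11.58, 11.51, 11.29, 11.44 and 11.47 and its female MI arrays 11.11, 10.92, 11.24, 10.89 and 11.15, with no overlap. The log2 difference was -0.40 (SE 0.106, adjusted p = 0.00634), and in males it was -0.24 and not called (adjusted p = 0.129). Lmod2, leiomodin 2, which lengthens thin filaments, was near the detection limit, at 5.54, 5.29, 5.88, 5.73 and 5.57 on female sham and 5.16, 4.89, 5.49, 4.45 and 5.30 on female MI arrays. The groups overlapped, and its fall of 0.55 in females (log2 difference -0.55, SE 0.202, adjusted p = 0.0427) was lost without any of 11 arrays. Those were female sham 1, 3, 4 and 5, female MI 1, 2 and 4, and male MI 1, 4 and 5 and male sham 5, with sizes of 0.394 to 0.573 and adjusted p up to 0.141. It was also lost with the chip as a block (-0.66, adjusted p = 0.0542), without a filter on dim probes (adjusted p = 0.105), with 1 sex per fit (adjusted p = 0.0501) and within chip 3 (-0.81, adjusted p = 0.0872). Tmod1, tropomodulin, which caps the pointed end of the filament, had a female difference of -0.34 that missed the threshold (adjusted p = 0.0523). Tnnc1, troponin C, the calcium sensor, differed by -0.02 in males and 0.06 in females, neither called, at levels near the top of the scale (means of 13.65 to 13.73).

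Among the Z-disc genes, 13 of 15 were measured. In males 2 rose (15.4%) and 2 fell (15.4%), while 9.77% of all features rose and 8.59% fell. In females 3 rose (23.1%) and 2 fell (15.4%), while 16.5% of all features rose and 16.3% fell. The share of Z-disc genes that fell in females was thus near that of all features. Synpo2l, a synaptopodin-like actin-binding protein of the Z-disc, read 7.40, 7.88, 7.57, 7.61 and 8.06 on male sham and 8.62, 8.87, 8.36, 8.14 and 8.001 on male MI arrays. In females it read 7.65, 7.46, 8.25, 7.42 and 7.59 after sham and 8.47, 8.73, 8.12, 7.91 and 8.07 after MI. The groups overlapped in both sexes, through male sham 5 and female sham 3. Synpo2l rose 1.62-fold in males (log2 0.69, SE 0.191, adjusted p = 0.0153) and 1.5-fold in females (log2 0.59, SE 0.191, adjusted p = 0.02245). Within chips 1, 2 and 3 the difference was 1.00, 0.23 and 0.47, and 0.48 in chip 4. Without male MI 2 the male difference was 0.574 (adjusted p = 0.0515), and the female call ended without female MI 1, female MI 2 or female sham 4 (sizes of 0.468 to 0.532, adjusted p up to 0.0768), with the chip as a block (0.47, adjusted p = 0.134) and without a filter on dim probes (adjusted p = 0.0582).

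Pdlim1, a PDZ-LIM adaptor that binds alpha-actinin, rose in females. Its female sham arrays read 10.34, 10.97, 10.32, 10.70 and 10.60 and its female MI arrays 11.12, 11.20, 10.92, 11.63 and 11.43, so that female MI 3 alone dipped below the highest sham array, female sham 2. The rise was 1.60-fold (log2 0.68, SE 0.149, adjusted p = 0.0016). In males sham arrays read 10.57, 10.59, 10.98, 10.34 and 10.47 and MI arrays 10.74, 10.93, 11.02, 10.59 and 10.84, a difference of 0.24 that was not called (adjusted p = 0.28). Within chip 3 Pdlim1 differed by 0.71 (adjusted p = 0.0778) and in chip 4 by 0.83.

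Pdlim5, of the same adaptor family, read 9.46, 10.37, 10.15, 10.32 and 10.83 on male sham and 11.43, 11.52, 10.22, 10.65 and 10.80 on male MI arrays. Male MI 1 and male MI 2 were high and the other MI arrays lay within the sham range. The male difference was 0.70 (SE 0.232, adjusted p = 0.0411), with 1.06 within chip 1 and 0.15 within chip 2. It was lost without any of 7 arrays, male sham 1, 2, 3 and 4 and male MI 1, 2 and 5 (sizes of 0.504 to 0.732, adjusted p up to 0.129). It also ended with the chip as a block (adjusted p = 0.054), with 75th percentile scaling, without a filter on dim probes, with 1 sex per fit, within either chip and without the position F arrays (adjusted p from 0.0661 to 0.943). Female sham arrays read 10.39, 11.01, 10.90, 10.77 and 11.21 and female MI arrays 11.36, 11.14, 11.27, 11.33 and 11.16, a difference of 0.40 that did not pass (adjusted p = 0.201). The dimmest of its 3 probes rose in both sexes, by 0.53 in males (adjusted p = 0.0224) and by 0.80 in females (adjusted p = 0.000608).

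Flnc, filamin C, which cross-links actin at the Z-disc and the cell membrane, read 11.06, 11.88, 10.86, 10.93 and 11.16 on female sham and 11.72, 12.02, 11.45, 11.77 and 11.31 on female MI arrays. Female sham 2 stood above 4 of the 5 MI arrays. The rise of 1.39-fold (log2 0.48, SE 0.17, adjusted p = 0.0357) ended without female sham 1, 3, 4 or 5 or female MI 1, 2 or 4 (sizes of 0.385 to 0.472, adjusted p up to 0.109). It also ended with 75th percentile scaling (adjusted p = 0.0968), without a filter on dim probes (adjusted p = 0.0812) and with 1 sex per fit (adjusted p = 0.0978). Female sham 2 is at position F, where Flnc was 0.45 higher, and without the position F arrays Flnc was called in both sexes. Male sham arrays read 11.19, 11.41, 11.65, 11.01 and 11.37 and male MI arrays 11.74, 11.88, 11.75, 11.58 and 11.59, with a difference of 0.38 (adjusted p = 0.124). Within chip 3 the difference was 0.84 (adjusted p = 0.0335), and in chip 4 it was 0.15.

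Ldb3 and Cmya5 fell in both sexes. Ldb3, also called Cypher or ZASP, binds alpha-actinin and keeps the Z-disc intact under load. It read 10.78, 10.88, 10.98, 10.41 and 10.68 on male sham and 10.31, 10.23, 10.17, 10.21 and 10.35 on male MI arrays, with no overlap. In females it read 10.49, 10.55, 10.87, 10.01 and 10.46 after sham and 9.94, 10.02, 10.16, 9.59 and 9.58 after MI, where female sham 4 fell among the MI arrays. The log2 difference was -0.49 in males (SE 0.145, adjusted p = 0.0223) and -0.62 in females (SE 0.145, adjusted p = 0.00259). Within chips 1, 2 and 3 Ldb3 differed by -0.64, -0.26 and -0.51, and in chip 4 by -0.89. The male call ended without male MI 3, male sham 2 or male sham 3 (sizes of 0.432 to 0.47, adjusted p up to 0.0615).

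Cmya5 encodes myospryn, a large protein beside the Z-disc that binds alpha-actinin and desmin and anchors protein kinase A. Its male sham arrays read 12.38, 12.56, 12.32, 12.41 and 12.31 and its male MI arrays 11.93, 11.69, 11.86, 12.20 and 11.94. Its female sham arrays read 12.37, 12.80, 12.40, 12.33 and 12.25 and its female MI arrays 11.28, 11.78, 12.06, 11.31 and 11.12. MI arrays stayed below sham arrays in both sexes, with male MI 4 and female MI 3 closest to sham. The level after MI was 1.38-fold lower in males (log2 -0.47, SE 0.152, adjusted p = 0.0357) and 1.89-fold lower in females (log2 -0.92, SE 0.152, adjusted p = 0.00012). Within chips 1, 2 and 3 the difference was -0.59, -0.29 and -0.75, and in chip 4 it was -1.12. Leaving out male sham 1, 2, 3 or 4 or male MI 1, 2, 3 or 5 ended the male call (sizes of 0.411 to 0.488, adjusted p up to 0.0965), as did testing without a filter on dim probes (adjusted p = 0.0743).

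Mypn, myopalladin, which ties alpha-actinin to nebulin-like proteins, had male sham arrays at 8.41, 8.78, 8.16, 8.09 and 8.47 and male MI arrays at 7.60, 8.01, 7.73, 7.88 and 8.06. The groups did not overlap, but the difference of -0.53 was not called (adjusted p = 0.114). In females the difference was -0.45 (adjusted p = 0.142). Myot (myotilin), Ablim1 and Pdlim3 were not called in either sex, at -0.32, 0.01 and -0.00 in males and -0.41, -0.34 and 0.14 in females. The core Z-disc genes Actn2 (alpha-actinin 2) and Tcap (telethonin, which caps titin) differed by -0.00 and -0.08 in males and by -0.03 and -0.12 in females. Their 95% intervals in females ran from -0.25 to 0.20 for Actn2 and from -0.30 to 0.06 for Tcap. Myoz2, calsarcin-1, an inhibitor of calcineurin at the Z-disc, read 12.49, 9.66, 12.57, 12.66 and 12.54 on female sham and 12.23, 12.31, 12.43, 12.26 and 12.19 on female MI arrays. The 4 other sham arrays were all above the 5 MI arrays, and the main difference of 0.30 (adjusted p = 0.577) came with female sham 2 at 9.66. Without female sham 2 it was -0.28 (adjusted p = 0.0246).

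**Figure D2:**
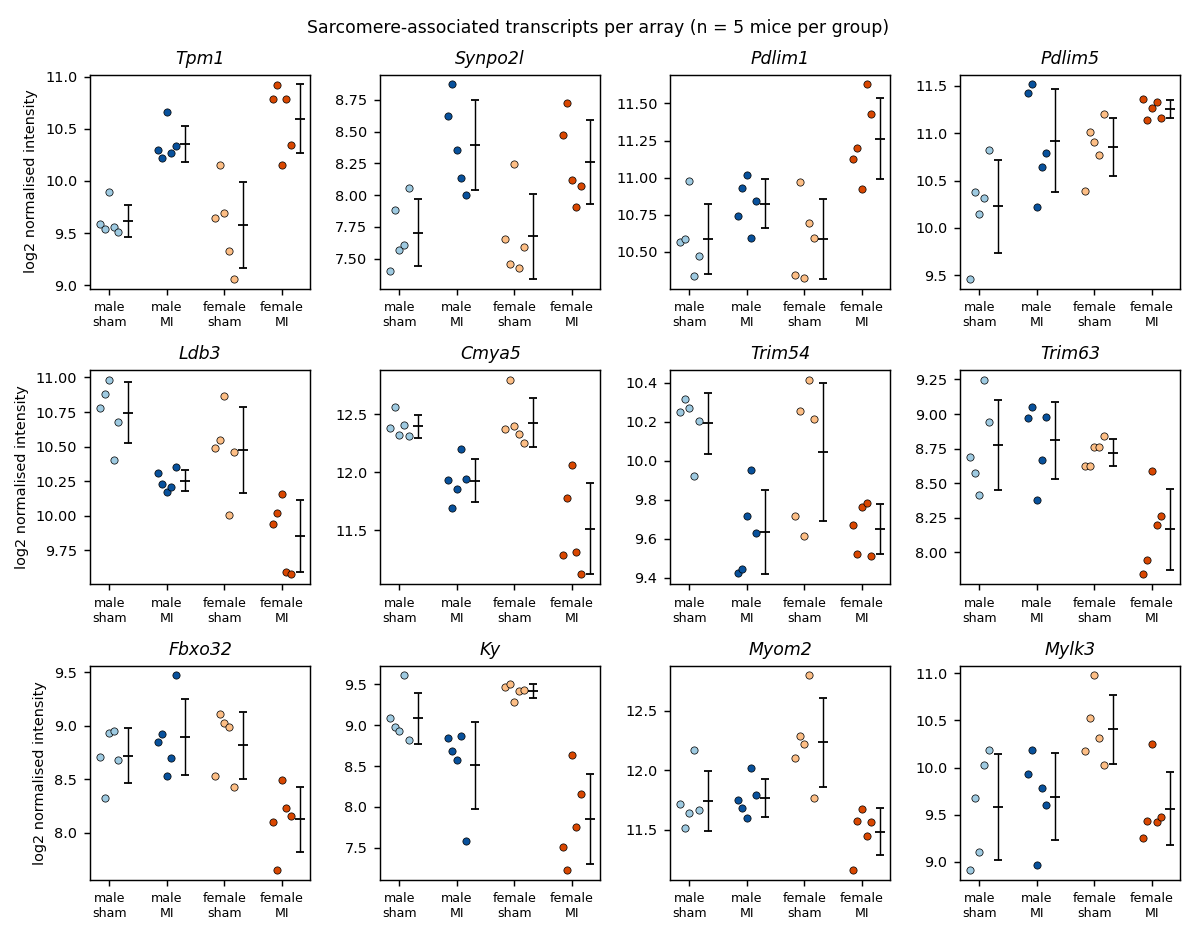
Normalised log2 intensity of 12 members on each of the 20 arrays, with the mean and SD of each group of 5 mice beside its points. Tpm1 lies between 9.06 and 10.15 after sham surgery and between 10.16 and 10.92 after MI, while Ky in females lies between 9.29 and 9.51 after sham surgery and between 7.23 and 8.63 after MI.

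All 4 thick filament and M-line genes were measured, and in males 0 of them were called. In females Myom2 and Ttn fell, while 16.3% of all features fell. Myom2, the M-protein that cross-links thick filaments in the M-line, read 12.10, 12.28, 12.22, 12.80 and 11.76 on female sham and 11.16, 11.57, 11.67, 11.45 and 11.57 on female MI arrays. Every female MI array was below every sham array, though female sham 5 came close. The level was 1.68-fold lower (log2 -0.75, SE 0.158, adjusted p = 0.00108), by -1.05 within chip 3 and -0.20 in chip 4. In males it read 11.72, 11.51, 11.64, 12.17 and 11.67 after sham and 11.75, 11.68, 11.60, 12.02 and 11.79 after MI, a difference of 0.03 with a 95% interval from -0.30 to 0.35. The related Myom1 (myomesin) differed by -0.07 and -0.09, and Mybpc3 (cardiac myosin-binding protein C) by -0.07 and -0.07, none of them called.

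Ttn, titin, was represented by 9 probes. The brightest read 12.89, 13.14, 13.26, 12.77 and 12.78 on male sham and 12.88, 12.74, 12.83, 12.78 and 12.80 on male MI arrays, a difference of -0.16 that was not called (adjusted p = 0.421). In females it read 12.97, 13.14, 12.87, 12.57 and 13 after sham and 12.45, 12.72, 12.89, 12.20 and 12.43 after MI, and the groups overlapped. That female difference was -0.37 (SE 0.132, adjusted p = 0.0343), and the call ended without female sham 1, 2 or 5 or female MI 1, 4 or 5 (sizes of 0.289 to 0.359, adjusted p up to 0.109). With the chip as a block it was -0.27 (adjusted p = 0.199), without the position F arrays -0.23 (adjusted p = 0.161) and within chip 3 -0.16 (adjusted p = 0.668), and the call also ended without a filter on dim probes and with 1 sex per fit. Over the 9 probes the difference was below 0 in both sexes each time, with medians of -0.50 in males and -0.43 in females, and 4 probes fell in each sex when every kept probe was tested. The Ttn probe with the smallest p among the 9, picked after its values were seen, read 8.14, 8.13, 8.21, 8.16 and 8.21 on male sham and 7.65, 7.51, 7.26, 7.73 and 7.49 on male MI arrays. In females it read 8.01, 8.02, 7.85, 8.03 and 7.89 after sham and 7.35, 7.33, 7.67, 7.10 and 6.92 after MI. MI and sham did not overlap in either sex on this probe, which differed by -0.64 in males (adjusted p = 0.000944) and -0.69 in females (adjusted p = 0.000185). Titin transcripts are spliced in many ways, and which transcripts each probe reads was not analysed here.

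Ubiquitin ligases of muscle, of which 3 of 4 were measured, fell in females, and Trim54 fell in males too. Of all features 16.3% fell in females and 8.59% in males. Trim54, MuRF3, which binds microtubules and the Z-disc, read 10.25, 10.32, 10.27, 9.92 and 10.20 on male sham and 9.42, 9.45, 9.71, 9.95 and 9.63 on male MI arrays. Apart from male sham 4 and male MI 4 the groups were separate. In males it was 1.47-fold lower (log2 -0.56, SE 0.144, adjusted p = 0.0103), with -0.75 within chip 1 and -0.27 within chip 2. Female sham arrays read 9.72, 10.25, 9.62, 10.42 and 10.22 and female MI arrays 9.67, 9.52, 9.76, 9.78 and 9.51, where female sham 1 and 3 lay within the MI range. The female difference of -0.39 (SE 0.144, adjusted p = 0.041) was lost without female sham 2, 4 or 5 or female MI 1, 2 or 5 (sizes of 0.3 to 0.398, adjusted p up to 0.118). It was also lost with the chip as a block (-0.43, adjusted p = 0.0851), without a filter on dim probes, with 1 sex per fit and without the position F arrays (adjusted p from 0.0795 to 0.0955). Within chip 3 Trim54 differed by -0.33, and in chip 4 by -0.71.

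Trim63, MuRF1, and Fbxo32, atrogin-1, are the pair of ligases best known from muscle atrophy. Fbxo32 read 8.53, 9.11, 9.03, 8.99 and 8.42 on female sham and 8.10, 7.65, 8.49, 8.23 and 8.15 on female MI arrays. Female MI 3 overlapped with the lowest sham array. The level was 1.61-fold lower after MI (log2 -0.69, SE 0.184, adjusted p = 0.00665), by -0.89 within chip 3 (adjusted p = 0.0474) and -0.27 in chip 4. In males it read 8.71, 8.32, 8.94, 8.95 and 8.68 after sham and 8.84, 8.92, 8.53, 8.69 and 9.47 after MI, a difference of 0.17 that was not called (adjusted p = 0.555). Its 3 probes all fell in females, with differences between -0.69 and -0.89, and lay between 0.17 and 0.35 in males, uncalled. Trim63 read 8.62, 8.62, 8.76, 8.76 and 8.84 on female sham and 7.84, 7.95, 8.59, 8.20 and 8.26 on female MI arrays, which did not overlap. It was 1.47-fold lower in females (log2 -0.55, SE 0.161, adjusted p = 0.0115) and differed by 0.03 in males (95% interval from -0.30 to 0.37). Within chip 3 the difference of Trim63 was -0.62 (adjusted p = 0.108), and in chip 4 it was -0.58.

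Of the 4 assembly and signalling genes, 3 fell in females, where 16.3% of all features fell, and 0 were called in males. Ky, a transglutaminase-like protein named for the kyphoscoliosis of mice that lack it, showed the largest difference of the set. It read 9.47, 9.51, 9.29, 9.42 and 9.44 on female sham and 7.51, 7.23, 8.63, 7.75 and 8.16 on female MI arrays. The sham arrays lay close together, and every MI array was below them. The level was 2.96-fold lower in females (log2 -1.57, SE 0.24, adjusted p = 5.41e-05), with -1.57 within chip 3 (adjusted p = 0.031) and -1.27 in chip 4. Male sham arrays read 9.09, 8.98, 8.92, 9.61 and 8.82 and male MI arrays 8.84, 8.68, 8.58, 8.87 and 7.58. The male difference of -0.58 missed the threshold (adjusted p = 0.1) and passed with 75th percentile scaling (-0.69, adjusted p = 0.0386). The other probe of Ky gave -0.57 in males and -1.58 in females (adjusted p = 6.81e-05).

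Mylk3, the cardiac kinase of the myosin regulatory light chain, read 10.17, 10.53, 10.98, 10.31 and 10.03 on female sham and 9.25, 9.43, 10.25, 9.43 and 9.47 on female MI arrays. Female MI 3 lay within the sham range and the other MI arrays below it. The level was 1.79-fold lower (log2 -0.84, SE 0.258, adjusted p = 0.0162), by -1.06 within chip 3 (adjusted p = 0.0613) and -0.56 in chip 4. Without a filter on dim probes its adjusted p was 0.0505. Males spread widely, at 8.91, 9.68, 9.10, 10.03 and 10.18 after sham and 9.93, 10.19, 8.96, 9.78 and 9.60 after MI, and differed by 0.11, with 0.46 within chip 1 and -0.41 within chip 2.

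Unc45b, the chaperone that folds myosin, read 11.45, 11.40, 11.40, 11.46 and 11.52 on female sham and 10.58, 10.94, 10.99, 10.03 and 11.25 on female MI arrays. No MI array reached the sham range. It was 1.61-fold lower in females (log2 -0.69, SE 0.158, adjusted p = 0.002185), with -0.80 within chip 3 (adjusted p = 0.09) and -0.27 in chip 4. In males it read 11.55, 11.42, 11.16, 11.60 and 11.33 after sham and 11.29, 11.15, 10.997, 11.19 and 11.07 after MI, a difference of -0.27 that was not called (adjusted p = 0.243). Smyd1, a methyltransferase that works with the myosin chaperones, was not called, at 0.01 in males and -0.50 in females (adjusted p = 0.153). Its level was 0.62 lower at position F (a shift of -0.62), and it was called in females without the position F arrays and with the chip as a block (-0.84, adjusted p = 0.0377).

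Desmin (Des) and synemin (Synm), the intermediate filament proteins, were not called in either sex after MI. Des read 12.33, 13.11, 12.25, 12.39 and 12.34 on female sham and 12.98, 12.85, 12.47, 12.84 and 12.44 on female MI arrays. Female sham 2 was the highest of the 10 and the other sham arrays were the lowest 4. The difference was 0.23 (adjusted p = 0.281), and without female sham 2 it was 0.39 (adjusted p = 0.0335). Synm differed by -0.12 in males and -0.29 in females (adjusted p = 0.0924).

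**Figure D3:**
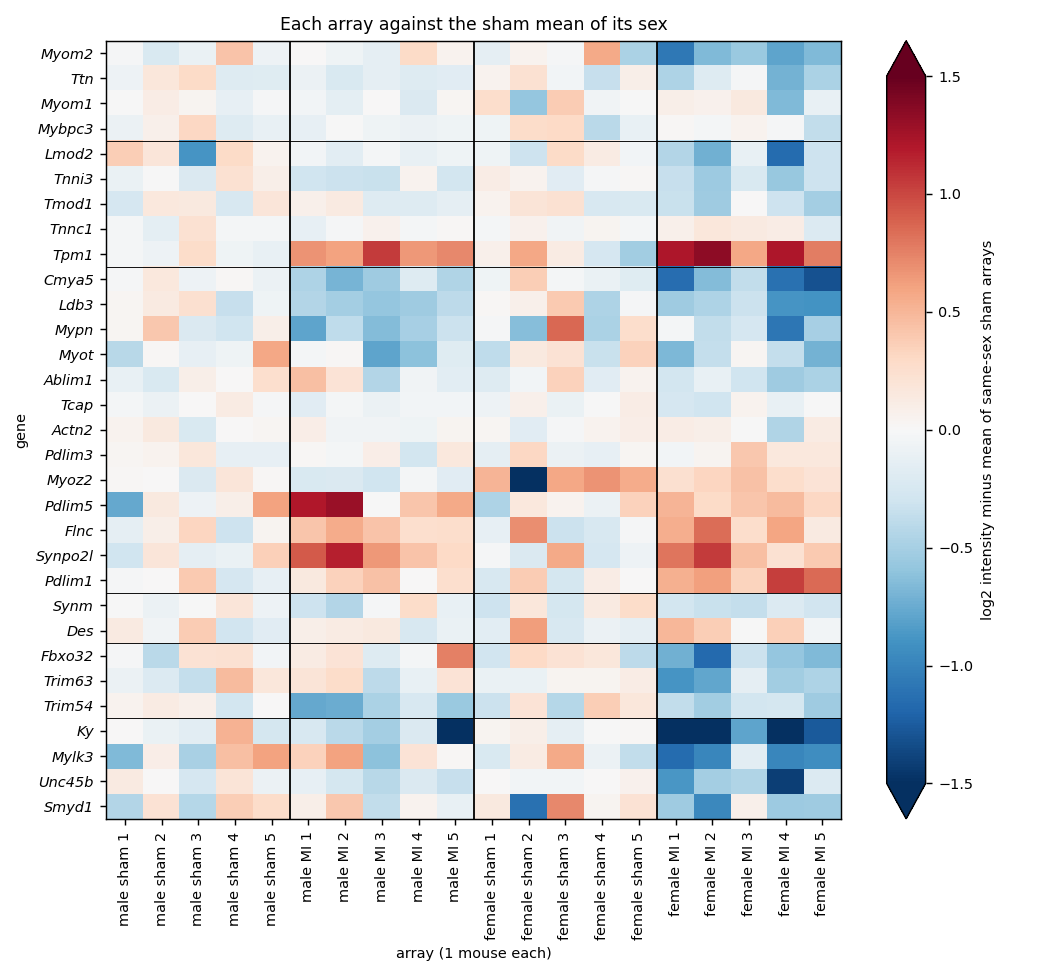
Log2 intensity of each array minus the mean of the sham arrays of its sex, for the 31 measured members (rows, grouped by role) and the 20 arrays (columns); the colour scale ends at -1.5 and 1.5. Tpm1 is red on the MI arrays of both sexes, and Ky, Cmya5 and Mylk3 are blue on most female MI arrays, with female MI 3 paler than the rest.

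Whether the responses differed between the sexes was tested by the interaction, female minus male. It was called for 0 of the 31 members and for 0 of 12921 features (0%), with 6 members and 1091 features at an unadjusted p under 0.05. The lowest adjusted p among members was 0.554. A call in females without a call in males was thus not shown to be a difference between the sexes. Of the 6 members, 5 had the more negative response in females. The difference between the responses was -0.78 for Myom2 (95% interval -1.24 to -0.31), -0.86 for Fbxo32 (-1.41 to -0.32), -0.99 for Ky (-1.70 to -0.29), -0.95 for Mylk3 (-1.71 to -0.19) and -0.59 for Trim63 (-1.06 to -0.11). For Pdlim1 it was 0.44 (0.00 to 0.88). Over all measured members 22 of 31 were below 0, with a median of -0.13, against 0.03 over all features. Of the 12 members that fell in females, 8 had a male difference below 0. With 75th percentile scaling the members' median was -0.01 and that of all features 0.08. Array weights, which called 31 features, called 0 members.

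After sham surgery the sexes differed in 1 of 31 members, Synm, while 0.108% of all features were called. Its male sham arrays read 6.16, 6.09, 6.17, 6.36 and 6.09 and its female sham arrays 6.53, 7.01, 6.58, 6.98 and 7.12, with no overlap. Females were 1.60-fold higher (log2 0.67, SE 0.131, adjusted p = 0.0405). On chip 2, which alone holds both sexes, the difference was 0.55 (adjusted p = 0.857), and with the chip as a block it was 0.48 (adjusted p = 0.651). Synm was not called with 75th percentile scaling, without a filter on dim probes or without the position F arrays (adjusted p from 0.0519 to 0.116), and the call ended without any of 12 arrays. These were male sham 1, 2, 3 and 5, male MI 3 and 5, female sham 2, 4 and 5 and female MI 1, 2 and 3, with sizes of 0.607 to 0.674 and adjusted p up to 0.145. Mylk3, Pdlim5 and Myom2 were higher in female than male sham arrays by 0.82, 0.63 and 0.49 on average, none called (adjusted p = 0.211, 0.269 and 0.214). Within chip 2 these 3 differences were 0.24, 0.13 and 0.28.

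The probes of Ttn, Mybpc3, Myom1, Myom2, Actn2, Tcap, Myoz2, Tnnc1, Cmya5 and Des lay in the brightest 1% of all probes. Actn2, Tnnc1 and Tcap were nearest to the top of the scale at 13.99, with group means of 13.40 to 13.73, and Myom2 and Cmya5 lay lower, at 11.48 to 12.43. Their median size of difference was 0.07 in males and 0.18 in females, against 0.24 and 0.50 for the 21 other measured members. Of the 10 bright members 1 was called in males and 3 in females, and of the 21 others 5 and 13. Dimmer probes of the bright genes gave further values, though the second probe of Tcap was itself bright (mean raw intensity 8221, against 7286 for the chosen Ttn probe). That probe of Tcap fell in females (-0.34, adjusted p = 0.0473), as did the second probes of Myom1 (-0.51, adjusted p = 0.0183) and Myoz2 (-0.87, adjusted p = 0.0101). In males these probes differed by -0.08, -0.20 and -0.20, not called. The second probe of Actn2 differed by -0.10 in males and -0.00 in females, not called. On the dimmest of 3 Actn2 probes the differences were -0.66 in males and -1.14 in females, with SE 0.453 and no call.

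The scaling of the arrays bore on the male result. With each array scaled to its 75th percentile in place of quantile normalisation, the median over all features moved to -0.13 in males and -0.08 in females. The members then counted 2 that rose and 9 that fell in males, and 3 that rose and 14 that fell in females. Over all 12921 features 998 then rose and 2049 fell in males, against 1263 and 1110 with quantile normalisation. In females 1831 features rose and 2205 fell, against 2126 and 2105. Of all called features 32.8% were then higher in males, against 53.2% with quantile normalisation, and in females 45.4% against 50.2%. Ky, Tcap, Tnnc1, Tnni3, Ttn and Unc45b were the members newly lower in males, and Pdlim5 lost its call. Relative to the median over all features, the members' median was -0.16 in males and -0.32 in females with this scaling, and -0.02 and -0.29 with quantile normalisation. With this scaling the differences of Ablim1, Des, Mylk3, Myom2 and Trim63 in males and of Tnnc1 in females changed sign, and they were not called either way.

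**Figure D4:**
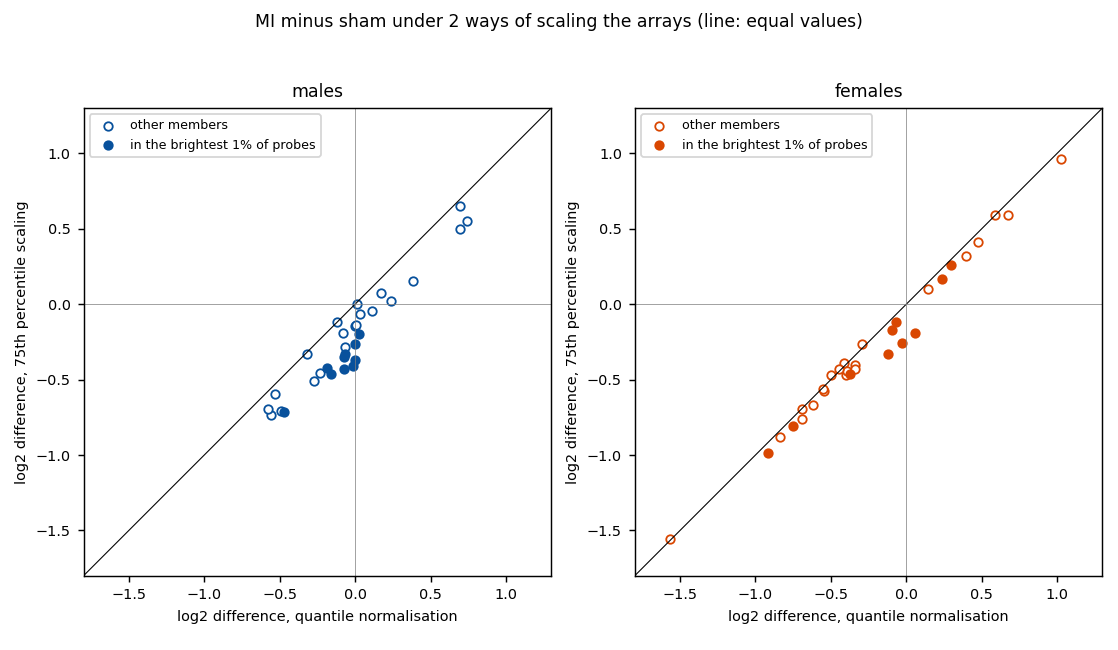
Log2 difference of MI minus sham per member with quantile normalisation (x axis) and with 75th percentile scaling (y axis), in males and females; filled points are the 10 members in the brightest 1% of probes and the line marks equal values. In males most points lie below the line, where the median over all features moved from -0.04 to -0.13.

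Where a gene had several probes, they mostly went the same way. The 31 members had 61 kept probes, and 16 members had more than 1. In each sex 13 of these 16 had every kept probe on the same side of 0, and 0 members had called probes in both directions. Of the 30 probes not chosen, 4 fell and 2 rose in males, and 14 fell and 2 rose in females. Among all 18683 kept probes of the series 1445 fell and 1642 rose in males, and 2921 fell and 2768 rose in females. Mylk3 had 3 probes below 0 in females, of which 2 fell, and Unc45b and Cmya5 each had 2 that fell. Ldb3 had 5 probes, of which 3 fell in females, and the 2 dimmest gave -0.26 and 0.03.

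**Figure D5:**
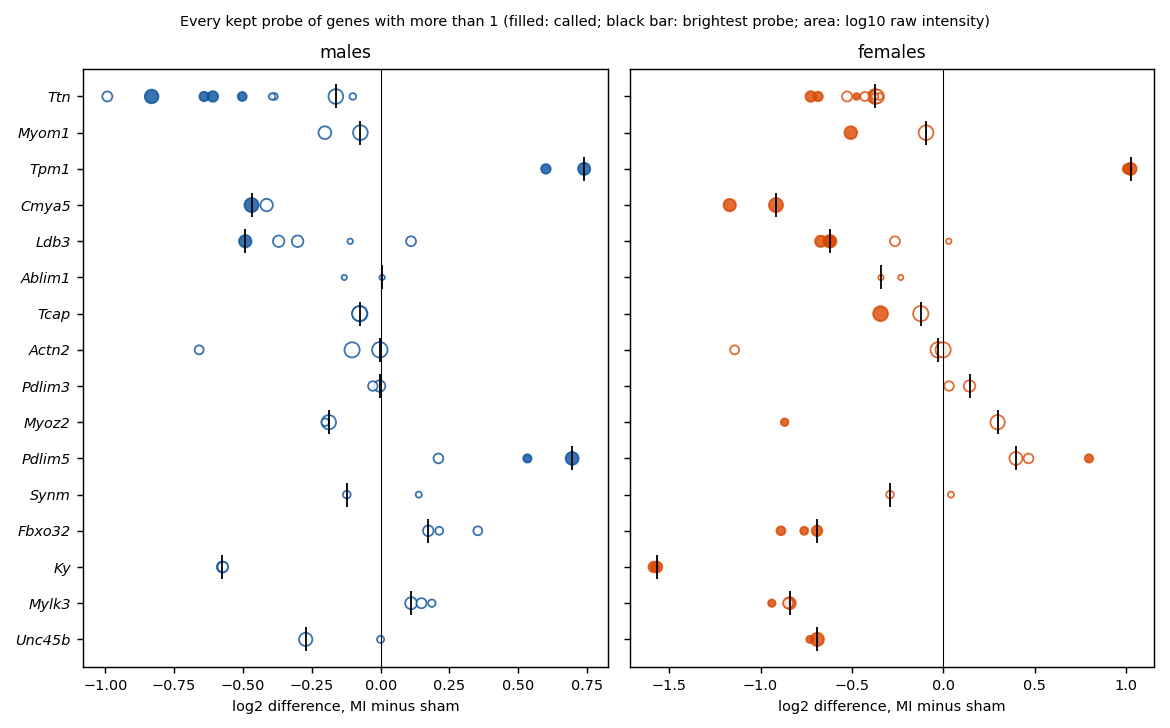
Log2 difference of MI minus sham for each kept probe of the 16 members with more than 1, in males and females; filled points are called, a black bar marks the brightest probe, and the area of a point grows with its log10 raw intensity. The 9 Ttn probes all lie below 0, and the Myoz2 probes lie on either side of 0 in females, at 0.30 and -0.87.

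Array female MI 3 resembled sham more than the other female MI arrays did. It was the highest of the 5 MI arrays for 10 of the 12 members that fell in females and the lowest for 2 of the 4 that rose. Its summed macrophage markers (4329 on the linear scale) were the lowest of that group, and its summed cardiomyocyte markers (109400) the highest. Without it 4 members rose and 13 fell in females.

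Markers of other cells moved with MI beside these genes. Over all features 9.77% rose and 8.59% fell in males, and 16.5% rose and 16.3% fell in females. Of 7 measured macrophage markers 5 rose in males and 7 in females, and their summed level ran from 2239 to 3201 in sham and 4833 to 6114 in MI arrays of males, and from 2143 to 3773 and 4329 to 9096 in females. Of 9 fibroblast markers 5 rose in each sex, with Col1a1 4.08-fold higher in males, Postn detected on 0 arrays, and the sums were 6616 to 12340, 13270 to 14880, 4113 to 14230 and 11360 to 16130 in the same order. Tcf21, Dcn and Pdgfra of the same list were not called in either sex. They differed by 0.02, 0.19 and 0.27 in males and by -0.01, 0.20 and 0.12 in females. Smooth muscle markers, which share desmin with the set, had 1 of 7 that rose in males, and 3 that rose and 1 that fell in females. Their sums were 11030 to 18200, 12640 to 15750, 11620 to 17600 and 14400 to 19770, and Cnn1 was detected on 0 arrays. Tagln, a smooth muscle and myofibroblast protein, rose by 0.57 in males and 0.66 in females. The smooth muscle marker that fell in females was Myh11 (-0.74, adjusted p = 0.000275), at -0.18 in males and not called there. Smtn was below 0 in both sexes (-0.20 and -0.41) and not called. Endothelial markers counted 0 of 7 called in males and 1 of 7 that fell in females. Atrial markers had 1 of 4 that rose in each sex (Nppa, 1.80-fold in males and 1.85-fold in females), with sums of 6606 to 15480, 12020 to 18790, 9037 to 16300 and 14670 to 22750, and Bmp10 was detected on 0 arrays. The 3 other atrial markers were below 0 in both sexes and not called. Myl4 differed by -0.41 in males and -0.63 in females, Myl7 by -0.50 and -0.57, and Sln by -0.27 and -1.15. Their SE were wide, at 0.729 to 0.923. Skeletal muscle markers had 1 of 7 that fell in males, and 2 that rose and 1 that fell in females, with sums of 2444 to 5053, 2912 to 3607, 2464 to 3702 and 3311 to 4038. Cardiomyocyte markers had 1 of 12 that fell in males and 3 in females, 0 rose, and their sums overlapped, at 100500 to 109500, 100400 to 105100, 98120 to 112600 and 96000 to 109400. Ckm, muscle creatine kinase, fell in both sexes, while Myh6, Myl2, Myl3 and Actc1 differed by -0.08 to 0.12. Tnni3k (-0.56, adjusted p = 0.00634) and Corin (-0.48, adjusted p = 0.00632) fell in females, and were at -0.17 and -0.16 in males, not called. The sums are on the linear scale, where the brightest probes weigh most, so they do not show an unchanged share of cardiomyocytes. The part of these cells in the members' differences was not tested.

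A wider list of 49 other sarcomere and Z-disc genes, of which 40 were measured, showed 6 that rose and 3 that fell in males and 8 and 5 in females. Over all features 9.77% rose and 8.59% fell in males, and 16.5% rose and 16.3% fell in females. Its median was 0.02 in males and -0.02 in females. The other tropomyosin genes rose along with Tpm1. Tpm4 rose 2.19-fold in males (adjusted p = 1.1e-05) and 2.04-fold in females (adjusted p = 6.35e-06). Tpm3 rose 2.69-fold and 2.22-fold (adjusted p = 2.12e-05 and 5.91e-05), and Tpm2, named after its values were seen, 1.85-fold and 2.15-fold (adjusted p = 0.00332 and 0.0002). These tropomyosins are made outside cardiomyocytes as well. Pdlim7, a further PDZ-LIM adaptor, rose 1.78-fold in males (adjusted p = 0.0117) and 2.66-fold in females (adjusted p = 6.17e-05). Lrrc39, a protein of the M-line, fell by a log2 difference of -0.45 in males (adjusted p = 0.0147) and -1.07 in females (adjusted p = 2.78e-06). Tmod4, a tropomodulin of skeletal muscle, differed by -0.85 and -1.07 (adjusted p = 0.000823 and 3.47e-05).

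Of 12 measured genes of atrophy and protein breakdown other than the ligases above, 0 rose, 1 fell in males and 4 fell in females, with medians of -0.23 and -0.16. Over all features 8.59% fell in males and 16.3% in females, with medians of -0.04 and -0.05. Fbxo30, a ubiquitin ligase of muscle wasting, fell in both sexes (-0.52, adjusted p = 0.02, and -0.58, adjusted p = 0.00523). Map1lc3b, a marker of autophagosomes, fell in females (-0.70, adjusted p = 0.00233), and in males the difference was -0.40 (adjusted p = 0.0929). Klf15, a transcription factor, fell in females (-0.71, adjusted p = 0.0203) and differed by -0.03 in males (adjusted p = 0.955).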

How the data were processed

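Left ventricle outside the infarct of 20 mice was measured on Illumina mouse BeadChips. The authors deposited probe intensity on a linear scale, not normalised, with a detection p-value per probe and array, per the file headers. A second deposited file holds log2 values with nearly equal column medians. Their comparison with the intensities does not establish the method of normalisation or whether background was subtracted. Each of that file's 20 columns matched its own array best (r 0.997 to 1), the column medians were 5.14 to 5.15, and genes had not been centred. Neither labels nor headers name the scanner software or array version.

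The intensities were processed with limma 3.58.1 in R 4.3.3 by neqc (background by detection p, offset 16, quantile normalisation, log2). Of 45281 probes, 34885 had 1 symbol, 18 several and 10378 were not listed. The 18683 probes with a detection p under 0.01 on at least 5 arrays were kept, and the brightest per symbol was tested, giving 12921 features, 10278 with a symbol. All 20 arrays entered a linear model of 4 group means (16 residual degrees of freedom, no covariate). Each adjusted p is from limma (eBayes), adjusted over all features by Benjamini-Hochberg, and calls were made under 0.05. Standard errors and 95% intervals are the model's. In each group 0 members were undetected on every array, so no bound was needed. The labels do not say how animals were processed together, and p-values measure the spread between these arrays. The closest arrays, male MI 1 and 2, had a median gap of 0.123 (log2), and each counts as 1 mouse.

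The members and lists were chosen with earlier results of these data known. Called members are given with their arrays in replicate order, and the uncalled ones in brief. Genes outside the set come from the lists, up to 3 per list and direction by smallest p. Alternatives were 75th percentile scaling, the deposited log2 values, no or a stricter detection filter, a test of all kept probes, a block for replicate number or for chip, fits per sex or chip, weighted arrays, and fits without the position F arrays or without each array. The fit was tested on simulated data.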

Additional observations from a re-analysis of the deposited data

Results flagged for a closer look

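In 13 of 124 groups of 5 arrays (31 members in 4 groups), the highest or lowest array was separated from the rest by more than Dixon's 95% critical value, where chance alone would give about 6.2 (1 in 20). Several of these arrays are at position F of their chip. Female sham 2 read 9.66 for Myoz2 (the others 12.49 to 12.66), 12.80 for Cmya5 (12.25 to 12.40) and 13.11 for Des (12.25 to 12.39). Male sham 3 read 9.89 for Tpm1 (the others 9.51 to 9.59) and 4.54 for Lmod2 (5.48 to 5.79), and female MI 4 read 13.24 for Actn2 (13.68 to 13.82). The other flags are at other positions. Female MI 5 was low for Mybpc3 at 12.20 (the others 12.54 to 12.62) and for Tnnc1 at 13.47 (13.75 to 13.85). Female MI 3 was high for Mylk3 at 10.25 (9.25 to 9.47), and female sham 3 was high for Synpo2l at 8.25 (7.42 to 7.65). Among male MI arrays, Tpm1 read 10.66 on male MI 3 (the others 10.22 to 10.34), Tnni3 read 11.48 on male MI 4 (11.10 to 11.16) and Ky read 7.58 on male MI 5 (8.58 to 8.87). Without male MI 5 the Ky difference in males was nearest to 0 among all fits that left out 1 array, at -0.34, and it was not called.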

How the results depend on the processing

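Under the settings other than leaving out 1 array, 58 of 72 values of members called in males and 146 of 176 of those called in females kept their direction and their side of the threshold. Calls were lost in 14 and 30 of them, new calls appeared 15 and 9 times, and the sign of a called value turned in 0 of them in males. Myoz2 in females turned from 0.30 to -0.28 without the position F arrays (adjusted p = 0.0275) and to -0.28 without female sham replicate 2 (adjusted p = 0.0246), and fits that left out 1 array gave -0.28 to 0.47. With 75th percentile scaling 9 members fell in males, where 2049 of 12921 features fell, and 0 members differed between the sexes after sham surgery. Without a filter on dim probes 2 members rose and 8 fell in females, 2 rose and 2 fell in males, and 0 differed between the sham groups. With the chip as a block that last count was 0, and members counted 2 up and 3 down in males and 3 and 10 in females. Within chip 2, with 2 arrays per group, 0 members rose, 0 fell and 0 differed between the sham groups, and 1 gene was called in males over all features. Within chip 3, 2 members rose, 3 fell and 946 genes were called in females. Array weights gave 5 members that fell and 4150 genes in males. Without the position F arrays 5 members fell in males and 0 differed between the sham groups. The smaller counts within a chip come with fewer arrays per group, and for the other settings the cause was not tested. When each array was left out in turn, 1 to 4 members rose and 1 to 3 fell in males, 2 to 5 rose and 9 to 13 fell in females, 0 to 1 differed between the sham groups and 0 to 0 in the interaction. Over all features 1711 to 2711 genes were then called in males and 3501 to 4634 in females. The labels' description field numbers the replicates in each group. Arrays of the same number did not deviate together: their correlations ran from -0.325 to 0.139 in males and from -0.0556 to 0.319 in females, and 2 of 5 pairs in each sex correlated best with their own number. With the replicate number as a block, 2 members rose and 3 fell in males and 4 rose and 10 fell in females, with 2177 and 4117 genes called. Pdlim5 in males and Lmod2 and Trim54 in females were then not called (adjusted p = 0.0508, 0.0674 and 0.0553). The number of arrays, 5 per group, limits the precision.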
